A study of Mus musculus with 4 samples.

Results

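The genes described here encode 10 regulators of G-protein signalling (RGS proteins): Rgs2, Rgs3, Rgs4, Rgs7, Rgs9, Rgs10, Rgs11, Rgs16, Rgs17 and Rgs19. They are 10 of the 22180 genes read on arrays of Beta-TC-6, a mouse line of insulin-producing beta cells. A gene was represented by a probe set with no other symbol. Where it had several, the probe set was chosen by its mean log2 value over all 4 arrays, the highest being used, and the list of genes was drawn up with results of these data known. The levels and differences below are therefore a description.

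The cells were transfected with a mixture of RNAi duplexes against NF90, a double-stranded RNA-binding protein (siNF90, 2 arrays), or with a negative control siRNA (siNTC, 2 arrays). All arrays came from the same line, grown in high-glucose medium with serum and transfected with the same lipid reagent, and the labels name no other treatment. The time from transfection to harvest is not given in the sources used here. RNA was read on Affymetrix Mouse Gene 2.1 ST arrays, whose values per probe set were taken as log2 values. The labels do not say whether arrays of one group stem from different cultures, so the p-values may reflect technical spread alone.

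RGS proteins share a domain that binds the active, GTP-loaded alpha subunit of a heterotrimeric G protein and speeds the hydrolysis of its GTP. They thereby shorten the signal from a receptor to adenylyl cyclase, phospholipase C or ion channels. The R4 subfamily (Rgs2, Rgs3, Rgs4 and Rgs16 here) acts on Gi and Gq proteins. Members of the R7 subfamily (Rgs7, Rgs9, Rgs11) work as stable dimers with the beta subunit Gnb5, Rgs10 is a short protein of the R12 subfamily, and the RZ subfamily (Rgs17, Rgs19) acts on Gi and Gz. In beta cells, receptors coupled to Gq and Gs promote insulin secretion and receptors coupled to Gi restrain it, and Rgs4 is known there as a brake on muscarinic signalling.

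Rgs4 was lower and Rgs17 higher on the siNF90 arrays, and their differences were larger than those of the other 8 genes. Rgs2 was lower by a smaller step. For the remaining 7 genes the 95% interval of the difference included 0. In limma, fitted on the whole array, 0 of the 10 genes reached an adjusted p under 0.05, and neither did any other gene (0% of 22180). At an unadjusted p under 0.05 there were 3 of the 10, against 10.3% of all genes: Rgs17 on the higher side, against 5.87%, and Rgs2 and Rgs4 on the lower side, against 4.41%. With a variance prior fitted as a trend over expression level, 0 of the 10 were called, against 0.455% of all genes. The count at an unadjusted p under 0.05 depended on the setting. It was 2 of the 10 with the trend, where 2715 of the 22180 genes reached it. With the mean of each gene's probe sets it was also 2, against 2260 of all genes. In both settings Rgs2 was the gene that dropped out.

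The stretches of promoter printed here belong to the genes with the largest differences in each direction and to Rgs2, the other R4 gene with an interval below 0. They come from RefSeq (GRCm38.p6) and are read 5′ to 3′ on the strand of the gene, ending at the base before the annotated gene. Capitals mark matches, on either strand, to the cAMP response core TGACG, the CAAT box CCAAT, the GC box GGGCGG, the TATA box TATAAA and the E-box CACGTG. All windows searched were the 250 bases before a transcription start.
Rgs4, chr1:169747643-169747892, minus strand: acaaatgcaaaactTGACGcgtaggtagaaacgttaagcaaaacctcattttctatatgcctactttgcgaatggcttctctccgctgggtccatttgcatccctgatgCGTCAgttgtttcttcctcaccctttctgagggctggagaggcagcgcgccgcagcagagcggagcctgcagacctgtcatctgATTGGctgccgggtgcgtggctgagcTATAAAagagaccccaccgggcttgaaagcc
Rgs2, chr1:144004150-144004399, minus strand: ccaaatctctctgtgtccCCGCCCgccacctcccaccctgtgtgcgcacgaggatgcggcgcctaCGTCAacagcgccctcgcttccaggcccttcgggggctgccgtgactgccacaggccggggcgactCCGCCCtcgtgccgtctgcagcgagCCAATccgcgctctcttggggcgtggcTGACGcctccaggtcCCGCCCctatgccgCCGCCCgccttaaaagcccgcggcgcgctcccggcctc
Rgs17, chr10:5922413-5922650, minus strand: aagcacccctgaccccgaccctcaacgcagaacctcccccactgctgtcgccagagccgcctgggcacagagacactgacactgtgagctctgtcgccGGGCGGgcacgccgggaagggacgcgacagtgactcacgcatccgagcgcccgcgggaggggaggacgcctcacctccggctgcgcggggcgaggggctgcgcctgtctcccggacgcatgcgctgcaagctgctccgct

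The Rgs4 window held TGACG once on each strand, one CCAAT on the other strand and a TATAAA that began 31 bases before the start. The Rgs2 window also held TGACG once on each strand, with one CCAAT and 4 GC boxes. The Rgs17 window held GC boxes only, one of them in the 12 bases before the start that lie inside the annotated gene and are not printed. Of 32851 RefSeq promoter windows of this length, 17.8% held TGACG, 33.8% CCAAT, 32.7% the GC box, 12.4% TATAAA and 6.02% CACGTG, and the full palindrome TGACGTCA, which none of the 3 windows held, was in 1.55%. The share of G and C was 53.6% in the Rgs4 window and 72.4% in those of Rgs2 and Rgs17, where the median over all windows was 52.4%. These are matches of letters and were not tested as binding sites. Windows were at hand for 9 of the 10 genes (Rgs11 had none). Among the genes whose windows are not printed, Rgs10 and Rgs19 also held no match but GC boxes. TATAAA was in windows of Rgs3 and Rgs9, CCAAT in those of Rgs9 and Rgs16, and TGACG in none of them.

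In the R4 subfamily, Rgs4, which acts on both Gi and Gq, stood at 3.73 and 3.61 on the siNTC arrays and at 2.87 and 2.80 on the siNF90 arrays (log2 level, probe set 17229454). Every siNF90 reading was under every siNTC reading, and the gap between the groups was several times the spread within them. The means were 3.67 ± 0.08 in siNTC and 2.84 ± 0.05 in siNF90 (SD, n = 2 arrays each), a log2 difference of -0.84 ± 0.12 (SE of the limma fit) or a 1.78-fold lower level. The 95% interval of the difference ran from -1.13 to -0.54. Of all genes, 0.401% had a larger absolute difference, and 44 genes had a more negative one. Limma's adjusted p for Rgs4 was 0.357, and 0.0895 with the trend, so it was called by neither. In bulk RNA, fewer cells that express a gene and less of its RNA per cell cannot be told apart.

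Rgs2, known for its preference for Gq, stood at 3.04 and 3.24 (siNTC) against 2.77 and 2.80 (siNF90). The groups did not overlap, and the siNTC arrays differed from each other by more than the siNF90 arrays did. Its log2 difference was -0.36 ± 0.13 (SE; 95% interval -0.67 to -0.04), a 1.28-fold lower level (limma, adjusted p = 0.455). A second Rgs2 probe set, 17548932, read 0.75 and 0.71 (siNTC) against 0.76 and 0.85 (siNF90), under the lower quartile of every array (1.12 to 1.17). With the mean of both probe sets, the Rgs2 difference was -0.14. It is the one gene of the 10 with more than 1 probe set of its own.

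Rgs3, a longer R4 protein that acts on Gi and Gq, stood at 5.07 and 5.16 (siNTC) against 4.98 and 5 (siNF90). Both siNF90 arrays were the lower ones, by a margin no larger than the step between the siNTC arrays. The log2 difference was -0.12 ± 0.12 (SE; 95% interval -0.41 to 0.17). Rgs16, an R4 protein known from the developing pancreas, read 1.65 and 1.84 (siNTC) against 1.69 and 1.71 (siNF90), and the groups overlapped. It was the only one of the 10 whose means both lay under the median level of all genes (1.84), and the table has no measure of background, so its difference of -0.05 ± 0.13 (SE) rests on a low reading. All 4 of these R4 genes had differences below 0, against 45.8% of all genes, though that of Rgs16 was 0.05 without the second siNTC array. In Rgs2, Rgs3 and Rgs4 both siNF90 readings were the lower ones, against 17.9% of all genes. Of the other 6 R4 genes on the array, 4 had differences above 0 (Rgs1, Rgs5, Rgs13 and Rgs21), all at low readings.

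**Figure D1:**
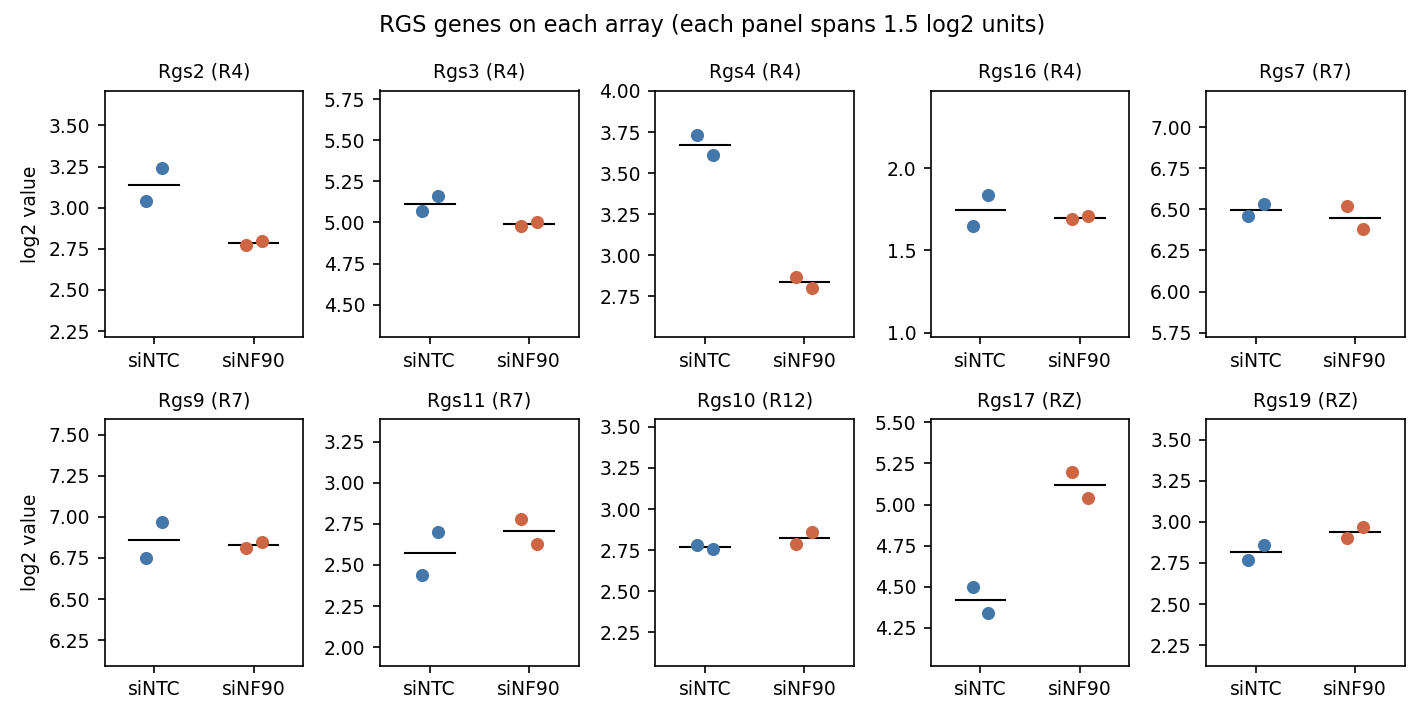
Log2 value of each of the 10 RGS genes on the 4 arrays, by group on the horizontal axis; points are arrays, horizontal bars are group means of 2 arrays, and each panel spans the same range of log2 values. Rgs4 is lower and Rgs17 higher on both siNF90 arrays, Rgs2 is lower by a smaller step, and the other panels show group means within 0.14 of each other.

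The RZ subfamily held the gene that was higher. Rgs17 (probe set 17238996), which acts on Gi and Gz proteins, stood at 4.50 and 4.34 (siNTC) against 5.20 and 5.04 (siNF90). Every siNF90 reading was over every siNTC reading, with the same step of 0.16 between the arrays of each group. The means were 4.42 ± 0.11 and 5.12 ± 0.11 (SD, n = 2 each), a log2 difference of 0.70 ± 0.13 (SE; 95% interval 0.38 to 1.03) or a 1.62-fold higher level. Of all genes, 0.924% had a larger absolute difference, and 114 genes had a more positive one. Limma's adjusted p for Rgs17 was 0.357, and 0.0697 with the trend. Rgs19, also called GAIP, read 2.77 and 2.86 (siNTC) against 2.90 and 2.97 (siNF90). The groups did not overlap, but its difference of 0.12 ± 0.12 (SE; 95% interval -0.17 to 0.41) was no larger than its standard error. Rgs20, the other RZ gene, is not among the 10 and read 1.42 and 0.93 (siNTC) against 1.66 and 1.08 (siNF90), with overlapping groups and low readings.

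Rgs7, Rgs9 and Rgs11 of the R7 subfamily showed no step between the groups. Rgs7, abundant in neurons, stood at 6.46 and 6.53 (siNTC) against 6.52 and 6.38 (siNF90), a difference of -0.05 (95% interval -0.35 to 0.26). Rgs9, known for ending the light response in photoreceptors, stood at 6.75 and 6.97 (siNTC) against 6.81 and 6.85 (siNF90), a difference of -0.03 (95% interval -0.35 to 0.29). In both genes the groups overlapped, and the lower end of both intervals was -0.35. Rgs11 read 2.44 and 2.70 (siNTC) against 2.78 and 2.63 (siNF90), a difference of 0.14 (95% interval -0.22 to 0.49) that was 0.005 without the first siNTC array, and its groups overlapped too. Of the R12 subfamily, Rgs10 read 2.78 and 2.76 (siNTC) against 2.79 and 2.86 (siNF90). Its groups touched without overlapping, and the difference was 0.06 (95% interval -0.23 to 0.34). Limma's adjusted p for these 4 genes lay between 0.8 and 0.963. Rgs6, the other R7 gene of the array, is not among the genes described. It read 1.12 and 1.11 (siNTC) against 1.17 and 1.36 (siNF90), a difference of 0.15 ± 0.13 (SE) without overlap, at low readings.

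Over the 10 genes, 4 had a difference above 0 and 6 below, where 53.1% of all genes lay above 0 and 45.8% below. The median log2 difference was -0.04 against 0.02 over all genes. The groups did not overlap for 6 of the 10, against 39.8% of all genes. These were 3 genes on the higher side (Rgs10, Rgs17, Rgs19), against 21.9% of all genes, and 3 on the lower side (Rgs2, Rgs3, Rgs4), against 17.9%. The median absolute difference was 0.12 over the 10 genes and 0.13 over all genes. Most of the family thus sat where most genes sat, while Rgs4 and Rgs17 lay at opposite edges of the distribution. Of the 10, 9 had a mean of at least the median level in the higher group.

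**Figure D2:**
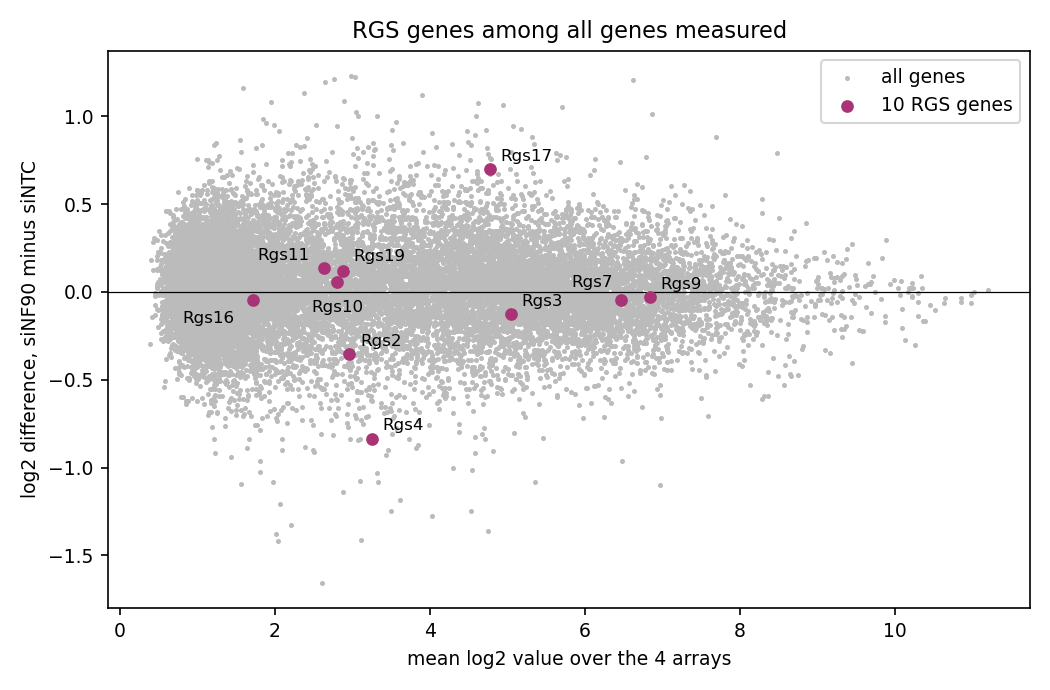
Log2 difference (siNF90 minus siNTC) on the vertical axis against the mean log2 value over the 4 arrays on the horizontal axis, with a grey point for each of 22180 genes and the 10 RGS genes named. Rgs4 (-0.84) and Rgs17 (0.70) lie at the lower and upper edges of the cloud, and the other RGS genes lie inside it.

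The other 11 Rgs genes of the array were Rgs1, Rgs5, Rgs6, Rgs8, Rgs12, Rgs13, Rgs14, Rgs18, Rgs20, Rgs21 and Rgs22. Their log2 differences lay between -0.18 (Rgs14) and 0.20 (Rgs20), 7 above 0 and 4 below, with a median of 0.01, and none had a p under 0.05 in limma, adjusted or not. Only Rgs12, a large R12 protein, reached the median level, at 2.96 and 2.80 (siNTC) against 2.93 and 2.71 (siNF90), a difference of -0.06 ± 0.14 (SE) with overlapping groups. The remaining 10 lay under the median level in both groups. Rgs5 is the neighbouring protein-coding gene of Rgs4 on chromosome 1, and read 1.29 and 1.14 (siNTC) against 1.24 and 1.45 (siNF90). Rgs13, the neighbour of Rgs2 on the same chromosome, read 1.01 and 0.84 (siNTC) against 0.85 and 1.02 (siNF90). In both neighbours the groups overlapped, at readings too low to compare with the steps of Rgs4 and Rgs2.

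**Figure D3:**
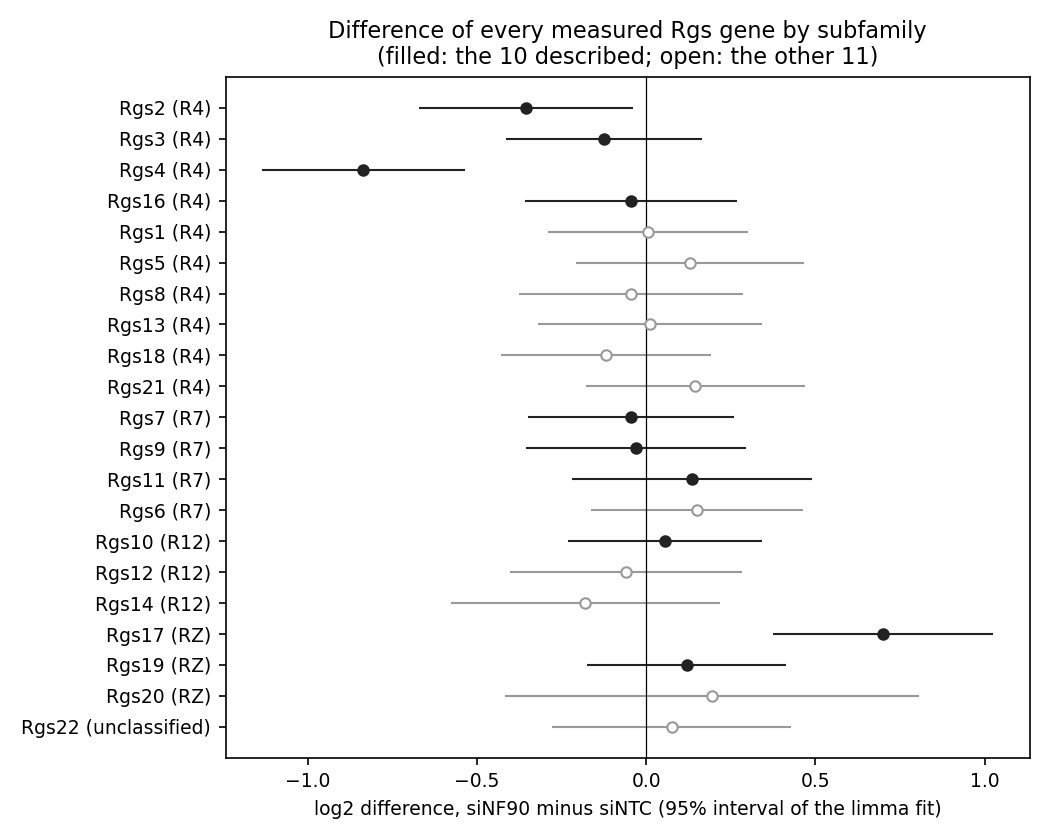
Log2 difference (siNF90 minus siNTC, horizontal axis) of each of the 21 measured Rgs genes with its 95% interval from the limma fit, ordered by subfamily; filled points are the 10 genes described and open points the other 11. The intervals of Rgs2 (-0.67 to -0.04) and Rgs4 (-1.13 to -0.54) lie below 0, that of Rgs17 (0.38 to 1.03) lies above 0, and the other 18 include 0.

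Among the proteins that hold RGS proteins in place, Gpr158, an orphan receptor that recruits Rgs7 to the membrane, stood at 6.33 and 6.48 (siNTC) against 6.81 and 6.95 (siNF90). That was a log2 difference of 0.48 ± 0.13 (SE), 1.39-fold higher, with no overlap of the groups (limma, adjusted p = 0.403). With the mean of its probe sets, the Gpr158 difference was 0.33. Gipc1, a scaffold protein that binds Rgs19, read 5.36 and 5.21 (siNTC) against 5.71 and 5.64 (siNF90), a difference of 0.39 ± 0.13 (SE), also without overlap (limma, adjusted p = 0.429). Gnb5, the obligate beta subunit of R7 proteins, differed by 0.08 ± 0.12 (SE) and Rgs7bp, the membrane anchor of R7 dimers, by -0.01 ± 0.12 (SE). Of 8 partners measured, 4 were higher, 3 lower and 1 equal (Gpr179), with a median of 0.04.

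The alpha subunits, on which RGS proteins act, differed in both directions. Gna11, a Gq-class subunit, stood at 6.82 and 7.06 (siNTC) against 7.31 and 7.41 (siNF90), a difference of 0.42 ± 0.14 (SE; limma, adjusted p = 0.432). Gnaz, which encodes the Gz subunit and inhibits adenylyl cyclase, stood at 4.38 and 4.51 (siNTC) against 4.86 and 4.76 (siNF90), a difference of 0.36 ± 0.13 (SE; limma, adjusted p = 0.439). The groups overlapped in neither gene. The inhibitory subunit Gnai3, named after its value was seen, was at 6.71 on both siNTC arrays and at 6.34 and 6.46 in siNF90, a difference of -0.31 ± 0.12 (SE). Of 16 alpha subunits, 7 had a difference above 0 and 9 below, the median was -0.03, and 3 had an unadjusted p under 0.05 (Gna11, Gnaz and Gnai3), against 10.3% of all genes. Of 14 beta and gamma subunits, 11 were above 0 and 3 below, with a median of 0.08. Gng4 stood at 6.74 and 6.75 (siNTC) against 7.09 and 7.12 (siNF90), a difference of 0.36 ± 0.12 (SE), and Gng7 differed by 0.23 ± 0.13 (SE).

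Receptors were read by the G protein they mainly couple to. Of 14 Gi-coupled receptors, 9 had a difference above 0 and 5 below, with a median of 0.07. The somatostatin receptor Sstr3 stood at 4.09 and 4.03 (siNTC) against 4.67 and 4.42 (siNF90), a difference of 0.48 ± 0.14 (SE; limma, adjusted p = 0.409). Sstr2 differed by -0.23 ± 0.13 (SE) at low readings, 1.77 and 1.96 (siNTC) against 1.59 and 1.67 (siNF90). Its mean reached the median level in siNTC only. Of 11 Gq-coupled receptors, 3 were above 0 and 8 below, with a median of -0.20, and 5 reached the median level. These 5 were Casr, the calcium-sensing receptor (-0.33 ± 0.14, difference and SE), Chrm3, the muscarinic receptor of beta cells (-0.27 ± 0.20), Cckbr (-0.27 ± 0.14), the nucleotide receptor P2ry1 (-0.20 ± 0.13) and the fatty acid receptor Ffar1 (-0.17 ± 0.16). The Gq-coupled receptor with the largest absolute difference went the other way. Cckar, named after its value was seen, read 1.05 and 0.91 (siNTC) against 1.35 and 1.46 (siNF90), a difference of 0.42 ± 0.13 (SE; limma, unadjusted p = 0.0154), at readings under the median level. The Chrm3 difference came from the second siNF90 array, at 3.67 against 4.25 on the first and 4.19 and 4.27 in siNTC, and it was 0.02 without that array. Of 7 Gs-coupled receptors, 6 were below 0, among them Vipr2 (-0.31 ± 0.12) and Gpr119 (-0.14 ± 0.25), while the GLP-1 receptor Glp1r differed by -0.04 ± 0.12. Gpr119 differed by 0.23 without the second siNF90 array. Limma called none of these receptors.

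Of 19 effectors measured, 8 were higher and 11 lower, with a median of -0.03. Adcy1, an adenylyl cyclase activated by calcium and calmodulin, stood at 3.90 and 3.67 (siNTC) against 3.13 and 3.28 (siNF90), 1.49-fold lower without overlap (difference -0.58 ± 0.14, SE; limma, adjusted p = 0.36). Kcnj6, a potassium channel subunit opened by beta and gamma subunits, differed by -0.29 ± 0.12 (SE). In a list of 16 genes that joined arrestins to receptor kinases and further proteins with an RGS-like domain, 13 were above 0 and 3 below. Their median was 0.08. Arrb2, which uncouples receptors from G proteins, differed by 0.27 ± 0.13 (SE). Axin1, a scaffold of the Wnt pathway whose RGS-like domain binds APC, differed by -0.27 ± 0.23, a value that was -0.53 without the second siNTC array or -0.01 without the first. Of 7 other regulators of G proteins, 4 were above 0 and 3 below, with Gpsm1, which holds alpha subunits in their GDP-bound form, at 0.35 ± 0.17 and the alpha-subunit chaperone Ric8a at 0.30 ± 0.18. Without the first siNF90 array these were 0.18 (Gpsm1) and 0.095 (Ric8a), and the Ric8a groups overlapped. Limma called no gene of the lists of G-protein signalling, with or without the trend.

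**Figure D4:**
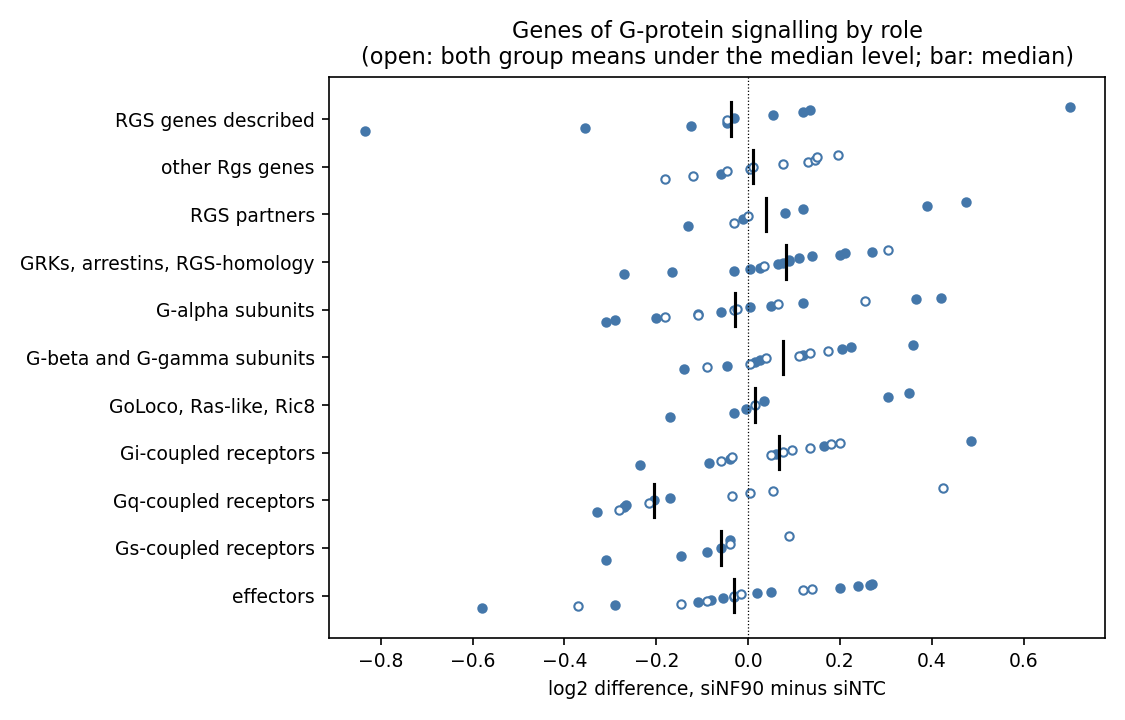
Log2 difference (siNF90 minus siNTC, horizontal axis) of the genes of G-protein signalling, 1 row per role; filled points reach the median level of all genes in at least one group, open points do not, and bars are medians. Rgs4 (-0.84) and Rgs17 (0.70) lie farther from 0 than any other gene shown, and the medians of the lists lie between -0.20 and 0.08.

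The genes whose values moved most like those of Rgs4 over the 4 arrays, by Euclidean distance after each gene's mean was subtracted and among 11446 genes at or above the median level, were Dnm3 (distance 0.0592), Zfand1 (0.0678) and the microRNA gene Mir483 (0.101). Dnm3 encodes a dynamin, which pinches vesicles off membranes, and stood at 5.52 and 5.46 (siNTC) against 4.74 and 4.63 (siNF90). Those most like Rgs17 were Ctbs (0.00866), Tmem63c (0.0539) and Tmem184b (0.0921). Ctbs, a lysosomal glycosidase, stood at 2.17 and 2.02 (siNTC) against 2.87 and 2.71 (siNF90). With 4 arrays in 2 groups, such likeness mostly restates the difference between the groups.

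Across genes, which are not independent replicates, Pearson's r was 0.9927 between the siNTC arrays, 0.9919 between the siNF90 arrays and 0.9895 to 0.9913 between arrays of the 2 groups. Of 10 markers of beta cells, 9 reached the median level, with mean levels of 6.88 to 6.90 on the siNTC arrays and 6.94 to 6.96 on the siNF90 arrays. Of these 10 beta-cell markers, 5 had a difference above 0 and 5 below. The groups did not overlap for 3 on the higher side (21.9% of all genes) and 3 on the lower side (17.9%). The largest differences among them were those of Nkx6-1 (0.45 ± 0.12, SE) and Mafa (0.38 ± 0.15). Below 0, the largest was that of Slc30a8 (-0.225 ± 0.12). Ucn3, a marker of mature beta cells, was the one under the median level. Other islet cells were represented by 5 measured markers, led by Sst (-0.23 ± 0.13) and Gcg (0.20 ± 0.14), whose own levels were high in this line. The Gcg difference was 0.08 without the first siNTC array, and that of Sst was -0.14 without the second siNF90 array. Of 6 exocrine and duct markers only Krt7 (0.10 ± 0.13) reached the median level. Of 9 markers of stroma, endothelium and blood only Cd68 did, a lysosomal glycoprotein of macrophages, at 3.32 and 3.35 (siNTC) against 4.44 and 4.48 (siNF90). Of these 9 markers, 3 had a difference above 0 and 6 below, among them Ptprc (-0.01), a marker of blood cells, Adgre1 (-0.03), a marker of macrophages, and Cdh5 (-0.36), a marker of endothelium. Their mean level was 1.44 to 1.5 on the siNTC arrays and 1.55 on both siNF90 arrays. That mean includes Cd68, whose difference of 1.125 ± 0.12 (SE) was the largest of the 9. The part of other cells in the RGS values was not tested.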

How the data were processed

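The authors deposited 1 table of log2 values for 41345 probe sets on 4 arrays, for which the submitters' processing notes name Transcriptome Analysis Console. Its version, and how background, normalization and summarization were handled, are not given in these sources. The log base is not stated, and base 2 was taken because 5 to 10 values per array exceed 11.09, the natural logarithm of a scanner's highest value. Gene names came from GEO's platform annotation (23521 with 1 symbol, 1814 with several, 16010 with none here), and 1082 genes had more than 1. The level of the targeted gene is not reported here, so arrays are described by their labels.

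siNF90 was compared with siNTC over all 22180 genes in limma 3.58.1 (R 4.3.3, lmFit and eBayes without a trend; 2 residual and 3.92 prior degrees of freedom), with two-sided p-values, Benjamini-Hochberg adjustment over all genes and a threshold of 0.05. Exact permutation of 2 against 2 arrays cannot go below p = 0.33, so none was used. The number of arrays limits the precision. In simulated data with 200 of 22180 genes changed, the fit recovered 42% of changes of 1 and 92.4% of changes of 2 (log2), with 4.53% false calls. The changed genes were drawn at or above the median level, with equal numbers of changes of 1 and of 2. Variances were drawn from the prior of the fit without a trend. These settings were not matched to the changes in the real data, so the shares do not give the power there.

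The members and lists were chosen with earlier results of these data known. Of each list, the 2 genes with the largest difference at or above the median level are named, and other names were added after their values were seen. Other settings were a replicate block, a trend or robust prior, quantile normalization, median centring, a filter at the median level, averaged probe sets per gene, each probe set on its own, and leaving out each array.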

Additional observations from a re-analysis of the deposited data

How the results depend on the processing

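None of the 10 RGS genes passed limma's test over all genes under any alternative run. The lowest adjusted p was 0.0697 for Rgs17 and 0.0895 for Rgs4, both with a trend in the prior, and the highest was 0.764 for both, with an array left out. Their direction held in all 11 alternatives. The Rgs4 difference ranged from -0.86 to -0.84 over the settings that kept all arrays and from -0.90 to -0.78 with an array left out, and that of Rgs17 from 0.67 to 0.70 and from 0.62 to 0.78. With the trend, 101 of all genes passed (0.455%) instead of 0. No label ties equal replicate numbers to a common culture, and the deviations of same-numbered arrays correlated at r = -0.02 across genes. With the replicate number as a block, 0 genes and 0 of the 10 RGS genes passed (lowest adjusted p = 0.591), the median difference of the 10 stayed at -0.04, and 4 of the 10 remained above 0. The block with a trend, added after seeing the data, also gave 0 genes. Leaving out 1 array moved the median difference of the 10 genes between -0.11 and 0.047, the count above 0 between 4 and 6, and, among the 10 RGS genes and the genes that the naming rule gave, it turned the sign of Rgs7 (-0.115 to 0.025), Rgs9 (-0.14 to 0.08), Rgs16 (-0.14 to 0.05), Rgs12 (-0.17 to 0.05), Chrm3 (-0.56 to 0.02), Gpr119 (-0.515 to 0.225) and Krt7 (-0.015 to 0.215). Without changing sign, it moved Rgs11 between 0.005 and 0.265, Rgs2 between -0.455 and -0.255 and Rgs3 between -0.17 and -0.08. Cd68 passed with the trend (adjusted p = 0.0217). Quantile normalization and median centring turned no sign among the 10 RGS genes and the genes that the naming rule gave. Genes named outside the rule were not recomputed, and where their difference is near 0 its sign may turn. The table has no measure of background, so low readings such as that of Rgs16 cannot be called detected or undetected.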
